A study of Mus musculus with 7 samples.

Results

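The 10 genes described here form the core of the mammalian circadian clock: Per1, Per2, Per3, Cry1, Cry2, Nr1d1, Nr1d2, Dbp, Ciart and Arntl. They were taken by name from a count table of 25467 genes, and all 10 were found in it and passed the low-count filter that left 17211 genes for testing. The table holds RNA sequencing of mouse medial prefrontal cortex (mPFC), with 4 libraries from mice treated with rhTSP1, recombinant human thrombospondin-1 (TSP1 below), and 3 from control mice that received phosphate-buffered saline (PBS). Each of the 7 libraries stands for 1 mouse, since the labels speak of different animals. Strain, sex, age, dose, route, shared litters or sessions, and the hour at which tissue was taken remain not given in the sources used here. P-values therefore set the groups against the spread between these animals and carry no control for time of day.

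The clock is a feedback loop of transcription. The proteins of Arntl (also called BMAL1) and Clock pair up and bind E-box sequences to switch on the period genes (Per), the cryptochrome genes (Cry), Nr1d1, Nr1d2, Dbp and Ciart, and the period and cryptochrome proteins return to the nucleus to block that pair. Nr1d1 and Nr1d2 encode REV-ERB repressors that compete with ROR activators at a response element called RORE and hold Arntl down. In nocturnal rodents most of the E-box genes are therefore high in forebrain from the day into the evening, whereas Arntl is high from late night to morning. Cry1 peaks later than the other E-box genes and Cry2 has a shallow rhythm. Accordingly Per1, Per2, Per3, Nr1d1, Nr1d2, Dbp and Ciart are called the day and evening genes below, Arntl stands for the morning arm, and the cryptochromes are given on their own. The comparison asks whether TSP1 and PBS libraries differ in these genes. It also asks whether both arms differ in opposite ways, as they can between some hours of the day. Other hours need not set the arms apart in this way, and no order of peaks within the day and evening genes was used.

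Matches to sequence elements of clock regulation were found in some of the promoters. RefSeq windows (GRCm38.p6, 250 bases before to 50 after a transcription start) were given for 9 of the 10 genes (not Per2), 11 windows in all. Both strands were searched for the E-box (CACGTG), the D-box (TTANNTAA), the RORE (AA, any base, T, any base, GGTCA) and the CRE (TGACGTCA), the element of cyclic AMP response. These motifs do not contain one another. They stood in 7.15%, 6%, 0.606% and 1.79% of all 32851 windows of that length. Among the 11 clock windows 3 held an E-box, 1 a D-box, 1 a RORE and 0 a CRE. The 5 windows with a match are shown because they place the E-box and D-box genes and the RORE gene side by side, each written 5′ to 3′ on the gene's strand with the motif in capitals.
Ciart: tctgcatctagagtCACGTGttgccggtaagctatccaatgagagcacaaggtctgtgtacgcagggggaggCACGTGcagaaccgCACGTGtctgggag
Per1: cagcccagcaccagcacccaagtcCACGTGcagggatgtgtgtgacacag
Cry1: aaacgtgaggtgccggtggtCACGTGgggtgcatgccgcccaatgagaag
Per3: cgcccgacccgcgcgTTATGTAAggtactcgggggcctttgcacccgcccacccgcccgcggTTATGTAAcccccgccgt
Arntl: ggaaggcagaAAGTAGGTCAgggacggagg

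Ciart carried 3 E-boxes, beginning 116, 58 and 44 bases before its start (chr3:95882259-95882358, minus strand). The Per1 stretch (chr11:69098759-69098808, plus strand) lies inside the annotated gene and outside its exons, before the start of a shorter transcript, and its E-box begins 166 bases before that start. In Cry1 (chr10:85185085-85185134, minus strand) the single E-box begins 60 bases before the start. Per3 (chr4:151044806-151044885, minus strand) held 2 copies of the D-box TTATGTAA, the element bound by the protein of Dbp. The RORE of Arntl (chr7:113207528-113207557, plus strand) begins 27 bases after a start, in an exon of its 5′ untranslated region. No value below measures whether any of these elements was occupied.

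Expressed per length of exon, the 10 genes spanned a range from Nr1d1 at the top to Arntl at the bottom. On the scale of CPM (library-size scaled counts, normalised by TMM) per kilobase of exon, the means over 7 libraries were 31.1 ± 4.26 for Nr1d1, 28.5 ± 3.74 for Per1, 26.9 ± 2.30 for Cry2, 21.1 ± 1.04 for Nr1d2 and 19.5 ± 1.53 for Dbp (SD, n = 7). Lower levels were those of Per2 (14.6 ± 1.90), Per3 (9.82 ± 1.11), Ciart (7.81 ± 1.22), Cry1 (6.06 ± 0.792) and Arntl (4.26 ± 0.373). The ranges over libraries separated Cry2 from Nr1d2 and Per2 from Per3, and overlapped between all other neighbours in this order. Counts behind these levels ran from 242 (Cry1, TSP1 replicate 1) to 3328 (Cry2, TSP1 replicate 2) per library, from totals of 15090336 to 20755167. Slc17a7, a transporter gene that marks excitatory neurons of cortex, stood at 1302 to 1608 CPM. Of 5 genes of the suprachiasmatic nucleus and hypothalamus, the brain's central clock region, 3 were in the table and none exceeded 0.381 CPM in any library.

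None of the 10 clock genes differed between TSP1 and PBS once p-values were adjusted (Benjamini-Hochberg, over all 17211 genes). By edgeR's quasi-likelihood fit 0 genes had an adjusted p under 0.05, a background of 0%, and limma-voom also gave 0%. DESeq2 called 88 of the 14591 genes to which it gave an adjusted p (0.603%), with 0 of the clock genes among them. At an unadjusted p under 0.05 in edgeR stood 3 of the 10 clock genes, against 9.65% of all genes tested (1661 genes). Nr1d1 and Ciart were higher with TSP1, where the background was 4.21%, and Per2 was lower, where it was 5.44%. The groups did not overlap at 1 clock gene, Nr1d1, against 10.1% of all genes (4.83% higher and 5.26% lower with TSP1). Fitted differences were above 0 for 7 of the 10 clock genes, against 51.1% of all genes. The smallest edgeR adjusted p among the 10 was 0.310, for Nr1d1.

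**Figure D1:**
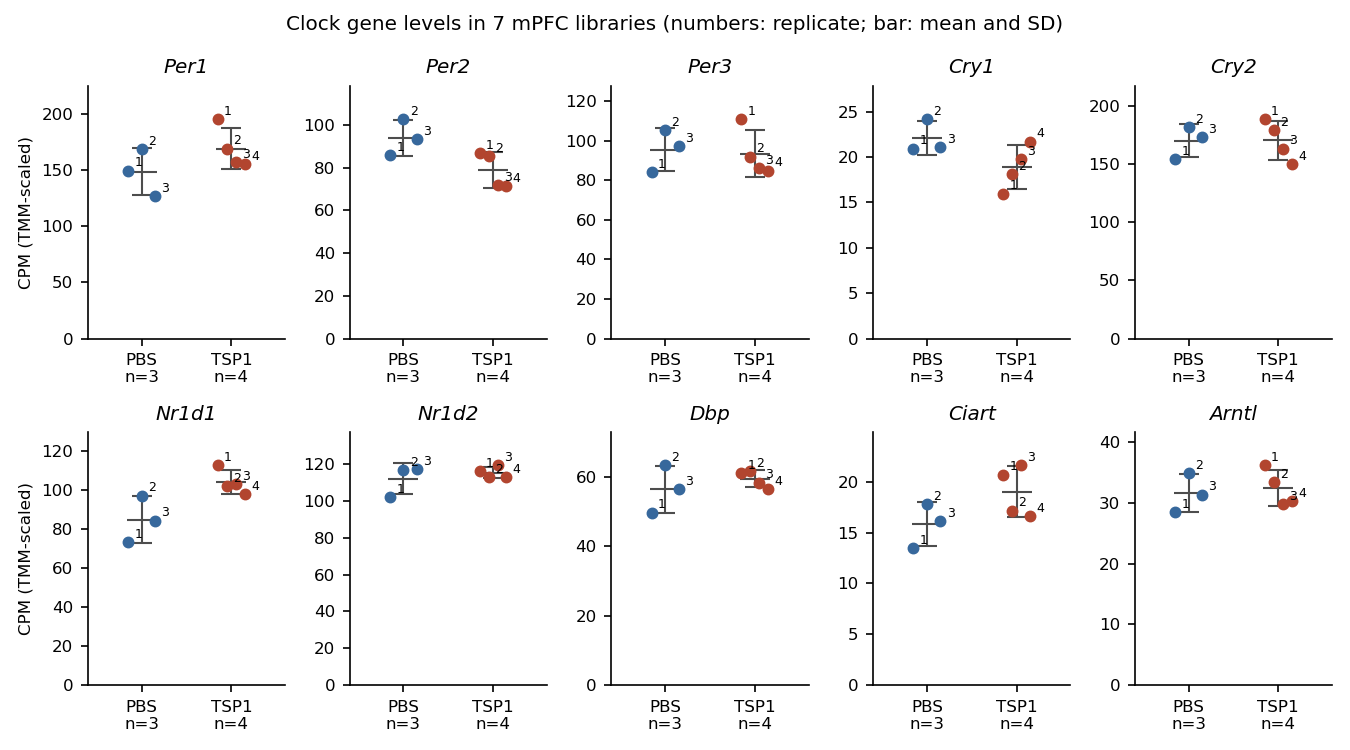
Levels of the 10 clock genes in each library, in CPM with TMM scaling on linear axes from 0, with 1 panel per gene, 1 point per library (number: replicate) and bars for the mean and SD of PBS (n = 3) and TSP1 (n = 4). Nr1d1 is the single gene whose groups do not touch, with TSP1 libraries from 97.9 and PBS libraries up to 97.2 CPM.

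Among the period genes, whose proteins are the slow repressors of the loop, Per1 and Per2 lay on opposite sides. Per1 (chromosome 11, 69095217 to 69109960; GRCm38 here and below) is also switched on rapidly by neuronal activity and glucocorticoid. It had 196, 169, 157 and 155 CPM in TSP1 replicates 1 to 4 and 150, 169 and 127 in PBS replicates 1 to 3. PBS replicate 3 lay below all others and PBS replicate 2 inside the TSP1 range. The log2 fold change of TSP1 over PBS was 0.19 (SE 0.10, 95% interval -0.04 to 0.41, edgeR adjusted p = 0.607), and it was 0.09 without PBS replicate 3 and 0.11 without TSP1 replicate 1.

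Per2 (chromosome 1, 91415982 to 91459324), the period gene most needed for rhythmic behaviour, had 86.7, 85.5, 72.0 and 71.4 CPM with TSP1 and 86.0, 103 and 93.2 with PBS. TSP1 replicates 3 and 4 were the lowest of all, while TSP1 replicate 1 was just above PBS replicate 1, so the groups met there. Means were 78.9 ± 8.33 (SD, n = 4) and 94.0 ± 8.46 (SD, n = 3), which gave a fitted log2 difference of -0.25 (SE 0.09, 95% interval -0.44 to -0.07, edgeR adjusted p = 0.369). Without PBS replicate 2, the highest library, it was -0.18 and no longer under an unadjusted p of 0.05 (0.0813). Per3 (chromosome 4, 151003652 to 151044665), a period gene with a lesser part in the loop, had 111, 92.0, 86.0 and 84.8 CPM with TSP1 and 84.0, 105 and 97.2 with PBS. Its groups covered nearly the same range, with a log2 fold change of -0.03 (SE 0.10, 95% interval -0.25 to 0.19) whose sign turned without any 1 of TSP1 replicates 3 and 4 and PBS replicate 2.

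The cryptochromes, partners of the period proteins and the stronger repressors, did not separate the groups. Cry1 (chromosome 10, 85131700 to 85185064) had 16.0, 18.1, 19.8 and 21.7 CPM with TSP1 and 20.9, 24.2 and 21.1 with PBS. The first 3 TSP1 libraries lay below every PBS library and the other one inside their range. The log2 fold change was -0.22 (SE 0.11, 95% interval -0.45 to 0.00, unadjusted p = 0.0536 and adjusted p = 0.530 in edgeR). Without PBS replicate 2 it was -0.15, and without TSP1 replicate 4, the highest of its group, -0.29. Cry2 (chromosome 2, 92403646 to 92434043) ran from 150 to 189 CPM with TSP1 and from 154 to 182 with PBS. Its log2 fold change was 0.00 (SE 0.08), with a 95% interval from -0.17 to 0.18.

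Of the REV-ERB genes, repressors of Arntl, Nr1d1 separated the groups and Nr1d2 did not. Nr1d1 (chromosome 11, 98767932 to 98775333) had 113, 102, 103 and 97.9 CPM with TSP1 and 73.2, 97.2 and 84.4 with PBS. All TSP1 libraries stood above all PBS libraries, although TSP1 replicate 4 and PBS replicate 2 were 97.9 and 97.2 CPM, and most of the spread lay within PBS. The means were 104 ± 6.21 (SD, n = 4) and 84.9 ± 12.0 CPM (SD, n = 3), which gave a fitted log2 difference of 0.29 (SE 0.09, 95% interval 0.11 to 0.48, unadjusted p = 0.00477 and adjusted p = 0.310 in edgeR). Without PBS replicate 1, the lowest library, it was 0.20. Nr1d2 (chromosome 14, 18204054 to 18239127), the close paralog of Nr1d1, had 116, 113, 119 and 113 CPM with TSP1 and 102, 117 and 117 with PBS. It varied least of the 10 genes over the 7 libraries, with a coefficient of variation of 4.96%, and its log2 fold change was 0.04 (SE 0.07, 95% interval -0.10 to 0.18). Whether the REV-ERB genes differ from each other in their response was not tested.

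Reads of Nr1d1 may include some of its neighbour, since 263 of its 3077 exon bases overlap exons of Thra on the opposite strand and no source states whether counting used strand. Thra, a thyroid hormone receptor gene, was more abundant (869 CPM with TSP1, 959 with PBS) and had a log2 fold change of -0.14 (SE 0.08), the other way from Nr1d1. Dbp likewise shares 539 of its 2993 exon bases with Sphk2, a sphingosine kinase gene on the opposite strand (log2 fold change -0.06, SE 0.09, at 25.2 and 26.2 CPM). Overlaps of Cry2 (295 bases) and Arntl (33 bases) are with genes of at most 2.56 CPM in either group's mean.

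Dbp and Ciart are output and repressor genes with strong daily rhythms in most tissues. Dbp (chromosome 7, 45705088 to 45710203), which encodes a transcription factor of D-box genes, had 61.2, 61.8, 58.4 and 56.6 CPM with TSP1 and 49.8, 63.4 and 56.5 with PBS. The TSP1 libraries lay between PBS replicates 3 and 2, and PBS replicate 1 was the lowest. Its log2 fold change was 0.07 (SE 0.08, 95% interval -0.10 to 0.25, edgeR adjusted p = 0.815), and -0.01 without PBS replicate 1. Ciart (chromosome 3, 95878503 to 95882251), the gene of the repressor CHRONO, had 20.7, 17.2, 21.6 and 16.6 CPM with TSP1 and 13.5, 17.8 and 16.1 with PBS. TSP1 replicates 1 and 3 were above all other libraries, and the other TSP1 libraries lay within the PBS range. The log2 fold change of 0.27 (SE 0.12, 95% interval 0.01 to 0.53, unadjusted p = 0.0429 and adjusted p = 0.499 in edgeR) became 0.16 without PBS replicate 1, where the unadjusted p was 0.219.

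Arntl (chromosome 7, 113207465 to 113314126), the activator of the morning arm, did not differ beyond the spread between libraries. It had 36.1, 33.4, 29.8 and 30.2 CPM with TSP1 and 28.5, 34.8 and 31.4 with PBS, so the PBS values lay among the TSP1 values save for PBS replicate 1, the lowest. The log2 fold change was 0.04 (SE 0.09, 95% interval -0.16 to 0.23, edgeR adjusted p = 0.936), and its sign turned without TSP1 replicate 1 or PBS replicate 1.

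**Figure D2:**
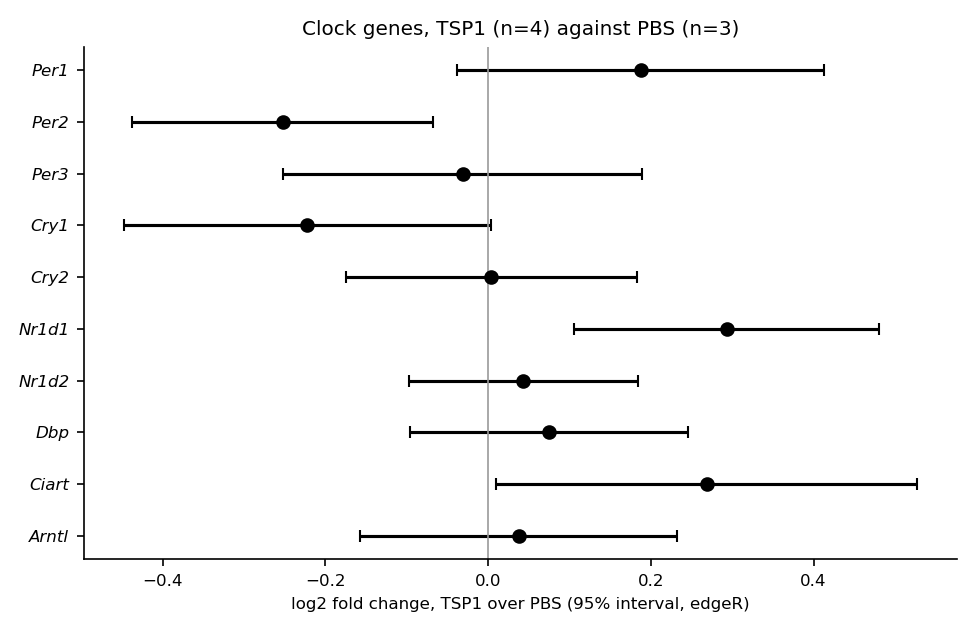
Log2 fold change of TSP1 (n = 4) over PBS (n = 3) for the 10 clock genes, with the edgeR estimate as a point and its 95% interval, unadjusted for the number of genes, as a bar. The intervals of Nr1d1 and Ciart lie above 0 and that of Per2 below, and the other 7 include 0.

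As grouped here, the arms showed no opposite shift. The arm mean pools genes fitted on both sides, from Nr1d1 at 0.29 to Per2 at -0.25, which offset each other. Arntl alone stands for the morning, and Cry1 is left out. These values cannot show whether the groups differed in hour, which was not tested. The 7 day and evening genes had fitted values on both sides, 5 above and 2 below 0, with a median log2 fold change of 0.07, beside a median of 0.00 over all genes tested. Their mean difference exceeded that of Arntl by 0.05 log2 units. These are descriptions with no test, since the genes were chosen with results known. Per library, the mean of the 7 genes relative to the average of all libraries was 0.17, 0.03, 0.02 and -0.07 log2 units in TSP1 replicates 1 to 4 and -0.19, 0.11 and -0.06 in PBS replicates 1 to 3. Arntl on the same scale was at 0.18, 0.06, -0.10 and -0.08 with TSP1 and at -0.16, 0.12 and -0.03 with PBS. In every library but TSP1 replicate 3 the Arntl value and the arm mean had the same sign and differed by at most 0.03 log2 units, and in TSP1 replicate 3 the arm mean was 0.11 above Arntl.

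This common movement lay between single libraries of both groups. PBS replicate 1 held the lowest value of 6 of the 10 genes and TSP1 replicate 1 the highest value of 5. All 7 day and evening genes were above their own average in TSP1 replicate 1 and in PBS replicate 2, and 1 of the 7 was in each of TSP1 replicate 4 and PBS replicate 1. The group means of the arm were 0.04 with an SD of 0.10 (4 TSP1 mice) and -0.05 with an SD of 0.15 (3 PBS mice), so the spread within groups exceeded the distance between them. The mean of 6 excitatory neuron markers had the same sign as Arntl in every library but PBS replicate 3, at 0.14, 0.01, -0.12 and -0.12 log2 units with TSP1 and -0.14, 0.18 and 0.05 with PBS. Its part in the clock gene values was not tested. The median over the arm was -0.01 without PBS replicate 1 and 0.17 without PBS replicate 2.

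**Figure D3:**
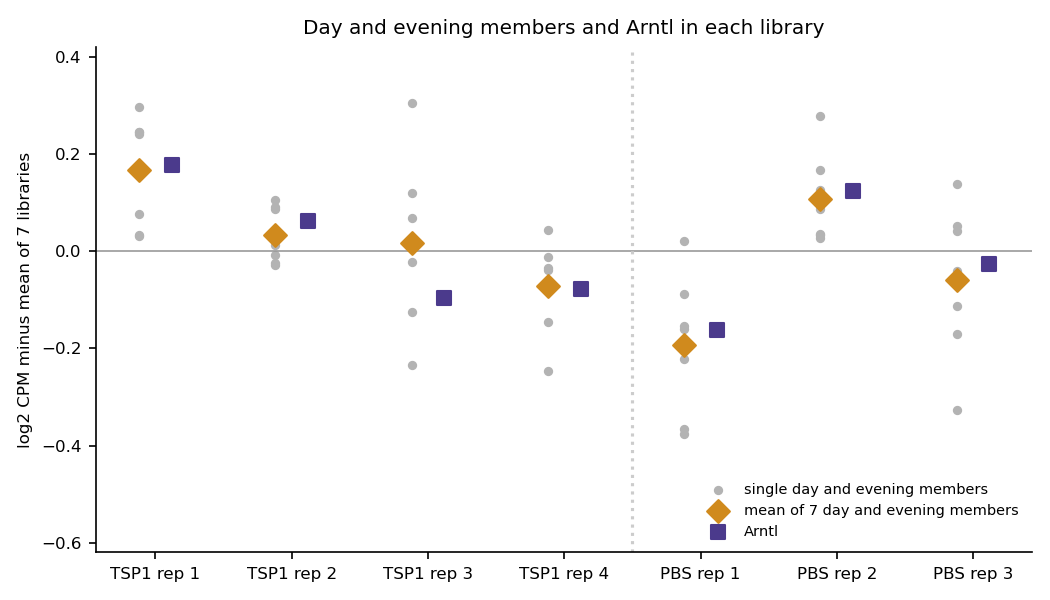
Deviation of log2 CPM from the mean of 7 libraries for each day and evening gene (grey), their mean (diamonds) and Arntl (squares), by library. The diamonds and squares move together, from 0.17 and 0.18 in TSP1 replicate 1 to -0.19 and -0.16 in PBS replicate 1.

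Offsets that take out, library by library, any dependence on transcript length or GC content widened the distance between the arms. With them the arm mean exceeded Arntl by 0.10 log2 units, and Arntl had a log2 fold change of 0.00. Clock genes at an unadjusted p under 0.05 in edgeR were then 5 of 10 (Nr1d1, Per2, Per1, Dbp and Ciart), against 8.56% of all genes, and 0 passed the adjustment. Dbp had a log2 fold change of 0.16 there (unadjusted p = 0.0314 in edgeR) and Per1 one of 0.22 (0.0277). Per library, the arm mean minus Arntl was 0.02, -0.04, 0.15 and 0.05 log2 units with TSP1 and -0.05, -0.06 and -0.05 with PBS. The TSP1 values thus lay above the PBS values in this version, closest at TSP1 replicate 2 and PBS replicate 1.

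Within the day and evening genes, Nr1d1 had the highest and Per2 the lowest fitted value. The difference of their deviations, a pair chosen after the values were seen and so given with no test, was 0.21, 0.09, 0.35 and 0.29 log2 units in TSP1 replicates 1 to 4 and -0.40, -0.25 and -0.31 in PBS replicates 1 to 3. Per1 minus Per2 was 0.26, 0.08, 0.21 and 0.21 with TSP1 and -0.11, -0.19 and -0.46 with PBS. Both differences were above 0 in every TSP1 library and below 0 in every PBS library, although Per1 and Per2 each overlapped between groups. Per2 was taken as the lowest fitted gene, which favours separate groups in any difference from it. The share of all gene pairs that separate in this way was not counted, while 10.1% of single genes did. The separation was not particular to Nr1d1 and Per1. Per2 itself was at 0.03, 0.01, -0.23 and -0.25 with TSP1 and 0.02, 0.28 and 0.14 with PBS. Dbp, Cry2 and the morning gene Arntl were likewise above Per2 in every TSP1 library and below it in every PBS library. Per3, Nr1d2 and Ciart were below Per2 in every PBS library but not above it in every TSP1 library.

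Across the 7 libraries the clock genes mostly varied in the same direction. Of 45 pairs, 35 had a Pearson r above 0 in log2 CPM, with values from -0.54 to 0.92 and a median of 0.50. Arntl had an r above 0 with each of the 7 day and evening genes, from 0.49 with Ciart to 0.92 with Per3. Of the 10 pairs below 0, 8 involved Cry1. These r values describe 7 points that share their library's composition and normalization, and no p is given. Genes outside the 10 with the most similar profile to the standardised mean of the day and evening genes, among 14325 genes compared over 7 libraries, were Togaram1 (Pearson r 1.00), Lmtk2 (0.99), Kcnh7 (0.98), Ncoa2 (0.98) and Sntb2 (0.97). The most opposite were Nnat (-0.99), Hist1h2bc (-0.98), Eef1akmt1 (-0.97), Arpc5 (-0.97) and Erh (-0.97). None of these 10 genes had an edgeR adjusted p below 0.768.

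No further gene of the clock pathway passed either threshold in edgeR. All 31 further genes listed were tested. Of these, 17 had fitted values above 0 and 14 below, with a median log2 fold change of 0.02. In edgeR 0 of the 31 passed the adjustment and 0 stood at an unadjusted p under 0.05, against 9.65% of all genes. limma-voom placed 1 of the 31 at an unadjusted p under 0.05, against 9.62% of all genes, and DESeq2 placed 0, against 5.68%. Clock, the partner of Arntl, had 105, 103, 101 and 104 CPM with TSP1 and 92.2, 98.1 and 99.4 with PBS. Its groups did not overlap, which held for 1 of the 31 genes, against 10.1% of all genes tested. The log2 fold change of Clock was 0.09 (SE 0.06, edgeR adjusted p = 0.661). Npas2, which can stand in for Clock in forebrain, had a log2 fold change of 0.07 (SE 0.08).

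Among the factors at the RORE, the activator genes Rora and Rorb differed from PBS by 0.02 (SE 0.15) and -0.06 (SE 0.09) on the log2 scale. At the D-box, the Dbp relatives Tef and Hlf were at -0.13 (SE 0.07, edgeR adjusted p = 0.561) and -0.01 (SE 0.10). Their antagonist Nfil3 had 8.15 CPM with TSP1 and 7.67 with PBS, or 0.08 on the log2 scale (SE 0.14). The E-box repressors Bhlhe40 and Bhlhe41 were at -0.06 (SE 0.10) and -0.17 (SE 0.11). Kinases and ubiquitin ligases that act on clock proteins lay between -0.05 and 0.10 in all 9 genes.

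**Figure D4:**
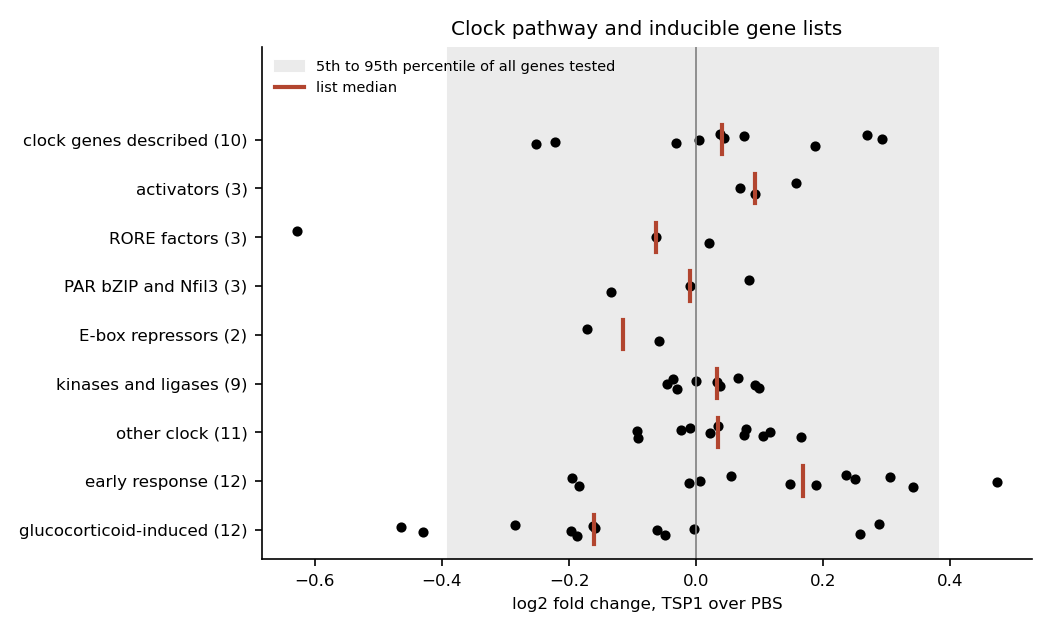
Log2 fold changes of TSP1 over PBS for the 10 clock genes and 8 lists, with 1 point per gene, a line at each list's median and grey shading from the 5th to the 95th percentile of all genes tested (-0.39 to 0.38). The 10 clock genes lie inside the shading, and the 9 kinases and ligases lie between -0.05 and 0.10.

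Genes that share other inputs with Per1 were set beside it. Of 12 early-response genes, which neuronal activity switches on within minutes, 9 were fitted above 0, with a median of 0.17 on the log2 scale. In edgeR 3 of the 12 were higher at an unadjusted p under 0.05, against 4.21% of all genes, and 0 passed the adjustment. They were Egr2 (log2 fold change 0.47, SE 0.13, adjusted p = 0.288), Fos (0.34, SE 0.14) and Nr4a1 (0.25, SE 0.11). The mean of this list was lowest in PBS replicate 1, at -0.37 log2 units from the average, the library that was also lowest for 6 clock genes. Of 12 glucocorticoid-induced genes, 10 had fitted values below 0 (median -0.16), the other way from Per1. In edgeR Zbtb16 (-0.43, SE 0.12), Plin4 (-0.46, SE 0.16) and Mt1 (-0.16, SE 0.07) were lower and Nfkbia (0.29, SE 0.09) higher at an unadjusted p under 0.05, against 5.44% lower and 4.21% higher over all genes, and none of these passed the adjustment (smallest adjusted p = 0.302). The part of these inputs in the clock gene values was not tested.

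Markers of other cells differed between libraries as well. Of 8 microglia markers 8 had fitted values below 0, with a summed level of 395 to 499 CPM with TSP1 and 506 to 573 with PBS, and of 6 endothelial markers 6 were below 0 (199 to 249 and 256 to 325 CPM). Astrocyte and oligodendrocyte markers were each fitted below 0 for 7 of 8 genes, and precursor markers for 5 of 5, while 51.1% of all genes were above 0. These lists differed in strength. At an unadjusted p under 0.05 in edgeR, 5 microglia, 4 endothelial, 3 astrocyte, 2 precursor and 0 oligodendrocyte markers were lower, against 5.44% of all genes. Of 6 interneuron markers 3 were lower at that threshold, while the other 3 were fitted above 0. Of 6 excitatory neuron markers 0 were lower at that threshold. None of these passed the adjustment. The oligodendrocyte mean ran from -0.59 log2 units (TSP1 replicate 1) to 0.88 (TSP1 replicate 4), a summed level of 3046 to 8341 CPM with TSP1 beside 4570 to 5754 with PBS. No marker in these lists was at 0 in any library. TSP1 replicate 4 stood apart in striatal markers, with a mean 1.46 log2 units above the average and a list sum of 427 CPM against at most 180 in PBS. Blood markers were 1.83 log2 units above their average in TSP1 replicate 3, the library in which the arm mean lay apart from Arntl, at 43.5 to 342 CPM summed with TSP1 and 84.1 to 123 with PBS. In bulk tissue fewer cells of a type and less RNA per cell cannot be told apart, and the part of these differences in the clock gene values was not tested. Without TSP1 replicate 4 the clock genes at an unadjusted p under 0.05 in edgeR were 4 of 10, Cry1 being added, against 9.74% of all genes in that fit, and the log2 fold changes of Nr1d1 and Per2 were 0.33 and -0.20.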

How the data were processed

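RNA from the mPFC of 7 mice (1.3 µg of total RNA each) entered a SMARTer mRNA library preparation, per the labels' protocols. The authors deposited counts per gene, taken as unnormalized because they are whole numbers with unequal totals. Genome builds GRCm38 and mm10 are named per the submitters' processing notes, while aligner, counter and strand setting remain not given in the sources used here. Columns were matched to samples through the leading number of each description, and 0 columns belonged to other samples. Of 25467 identifiers, 25375 matched GENCODE M21 symbols. Replicate libraries differed by more than sampling noise (chi-square per degree of freedom 3.98 to 13.4 within groups).

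Counts were fitted over the whole table with edgeR 4.0.16 in R 4.3.3 (filterByExpr, TMM, robust glmQLFit and glmQLFTest on group, two-sided, Benjamini-Hochberg, threshold 0.05). SE was obtained by dividing the absolute log2 fold change by the root of F, and intervals use the fit's degrees of freedom. CPM are TMM-scaled, and deviations use log2 CPM with a prior count of 2. Exon length is the union of annotated exons, and GC content that of the longest transcript. The median SE over all genes was 0.11 log2 units. Scripts were tested on simulated data.

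The members and gene lists were chosen with earlier results of these data known. Named were all 10 members, 9 further clock genes whatever their result, genes of the early-response and glucocorticoid lists at an unadjusted p under 0.05, and the 5 genes most and least alike in profile. Prkaa2, Thra, Sphk2 and Slc17a7 were named outside this rule, after their values were seen, and 1 listed gene is not reported here. Alternatives were RLE size factors, DESeq2 1.42.0, limma-voom (limma 3.58.1), no low-count filter, a filter of 5 CPM or more in 3 libraries, a block on replicate number, offsets for length and GC content (natural splines, 4 degrees of freedom), block and offsets together, and each library left out in turn.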

Additional observations from a re-analysis of the deposited data

Results flagged for a closer look

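In the group of 4 TSP1 libraries, 2 of 41 clock and clock pathway genes had a library far from the others, about as many as chance gives at 1 in 20. Bhlhe40, an E-box repressor, was low in TSP1 replicate 4, at 111 CPM against 139 to 143 in the other TSP1 libraries. Prkaa2, a kinase subunit gene that acts on cryptochrome stability, was high in TSP1 replicate 1, at 56.8 CPM against 44.7 to 45.8.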

How the results depend on the processing

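Under all 15 alternatives 0 of the 10 clock genes passed the adjustment (smallest adjusted p = 0.175, Nr1d1). Nr1d1, Ciart, Per1, Per2 and Cry1 kept their direction under all 15, with log2 fold changes of 0.20 to 0.41, 0.16 to 0.37, 0.09 to 0.30, -0.31 to -0.18 and -0.30 to -0.15. The sign of 5 others turned when single libraries were left out, where ranges were -0.12 to 0.051 (Per3), -0.062 to 0.063 (Cry2), -0.020 to 0.080 (Nr1d2), -0.011 to 0.17 (Dbp) and -0.033 to 0.12 (Arntl), and Per3 was at 0.010 with the replicate block. Over all genes, DESeq2 called 88, edgeR without a low-count filter 19, and edgeR with single libraries left out 0 to 9. Clock genes at an unadjusted p under 0.05 numbered 2 with DESeq2 (against 5.68% of all genes), where Ciart was at 0.0564. They numbered 5 with the replicate block (against 7.94% of all genes), 5 with length and GC offsets (8.56%), 6 with both (7.44%), and 2 to 4 with single libraries left out (6.71 to 10.6%). Other clock pathway genes there numbered 1 with limma-voom, 1 without a filter, 2 with the replicate block, 1 with the offsets, 2 with block and offsets, and 0 to 1 with single libraries left out. Tef (with the offsets, and without TSP1 replicate 2) and Bhlhe41 (with the block, alone or with offsets) were among them. The arm mean minus Arntl was 0.10 with the offsets and 0.10 with block and offsets (0.0993 and 0.0984), and 0.01 to 0.06 with single libraries left out. The cause of these changes was not tested. Same-numbered libraries did not deviate together (r of -0.26, -0.03 and 0.01) and did not each correlate best with their own number. No pairing by number was thus seen, but so few pairs cannot exclude one. The block leaves TSP1 replicate 4 without weight. With 3 or 4 mice a group, intervals for single clock genes spanned 0.28 to 0.52 log2 units, and differences inside an interval of that width around 0 were not detectable.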
